A study of Mus musculus with 54 samples.

Results

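Wild-type (WT) mouse embryonic stem (ES) cells were compared at day 4 and day 2 of treatment with retinoic acid (RA), in the 4 libraries labelled WT-1 and WT-2 at day 4 and WT-1 and WT-2 at day 2, of 54 samples in the series. The libraries were chosen by their labels of genotype, treatment and time. The cells were of the line 46C, from strain 129/Ola, which carries a GFP reporter in the neural gene Sox1. Before treatment they were held for a day in serum-free N2B27 medium with LIF, the cytokine of ES cell self-renewal, and 2 inhibitors of MEK and GSK3 kinases, and were then passaged without LIF or inhibitors into 2 µM RA. Cells of the same line with a 58 kb deletion at Haunt, a long noncoding RNA gene near the HOXA cluster, had been treated alike. Their 4 libraries, KO-i and KO-j on each of the 2 days, were used beside the WT libraries. The series asks how Haunt and its locus act on HOXA activation, and the comparison of days describes the course of differentiation in the cells that keep the locus. Whether WT-1 and WT-2 were separate cultures is not stated in the labels. The p-values measure only the spread between libraries, which may be in part technical. For each gene that spread was pooled over the WT and KO pairs. The p-value of a WT change thus also rests on how far KO-i and KO-j lay apart.

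RA is a derivative of vitamin A that enters the nucleus and binds RAR and RXR receptors on DNA. There it switches on Hox genes, which give cells their position along the body axis, together with enzymes that make and degrade RA itself. In ES cells without LIF it ends pluripotency, and depending on dose, density and time the cells go on to neural, mesodermal or extraembryonic endoderm fates. A bulk library holds a mixture of such cells, and fewer cells of a type cannot be told apart from less RNA per cell.

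Expression was measured as FPKM, the number of sequenced fragments per kilobase of transcript, scaled to the total of the library. Of each pair of values, the first is WT-1 (KO-i in KO cells) and the second WT-2 (KO-j). Steps between low values put the depth at 10.1 and 16.1 M reads at day 4, against 13.1 and 12.1 M reads at day 2. A fold change is the difference of means on the scale log2(FPKM + 1), day 4 minus day 2, which understates changes of genes with low values. It was tested with limma, and a gene passed at a Benjamini-Hochberg adjusted p under 0.05 over the 15705 genes that reached 1 FPKM in 2 or more of the 8 WT and KO libraries. Of these, 2260 rose (14.4%) and 1713 fell (10.9%), 3973 in all (25.3%), with 862 (5.49%) higher and 819 (5.21%) lower by at least 1 log2 unit. The median over all genes tested was 0.04. In 10808 genes (68.8%) both day 4 libraries lay on the same side of both day 2 libraries. Among 9669 genes with a WT mean of at least 5 FPKM, the day means lay more than 1 log2 unit apart in 951 genes, while WT-1 and WT-2 were that far apart in 120 genes at day 4 and 85 at day 2. With 1 WT library left out, so that the remaining library of its day is assumed to vary like the other groups, the number of genes that passed was lower. It was 1494 without WT-2 at day 4, 1667 without WT-2 at day 2, 1819 without WT-1 at day 2 and 1917 without WT-1 at day 4. A gene is said to have lost its call without a library where its adjusted p was then no longer under 0.05. Counts of a list without a library are given where they moved by over 1.5 times. Every list count from all 8 libraries is to be read beside the shares over all genes, 14.4% that rose and 10.9% that fell. With 1 library left out fewer genes passed over all, so these shares do not apply to list counts given without a library. Members of the lists were chosen with earlier results of these data known. With another scaling the split was more even. Of the genes that passed, 50.9% were higher with median ratio scaling and 51.6% with quantile normalization, against 56.9% as deposited.

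The 4 genes taken as marks of the 2 days were picked with earlier results of these data known. Igfbp5 (NM_010518, chromosome 1, 72904639 to 72921439 of the build mm9, as all positions of genes here), a secreted binding protein of insulin-like growth factors, measured 270.2 and 327 FPKM at day 4, against 3.66 and 4.77 FPKM at day 2 (log2 fold change 5.84, SE 0.504, adjusted p = 0.000634), the highest fold change among named genes of at least 10 FPKM. Acta2 (NM_007392, chromosome 19, 34314826 to 34329863), smooth muscle actin, measured 78.1 and 70.1 FPKM at day 4, against 0.359 and 1.24 FPKM at day 2 (5.43, SE 0.443, adjusted p = 0.000553). Both transcripts were low in both day 2 libraries and high in both day 4 libraries. Dppa5a (NM_025274, chromosome 9, 78214861 to 78216006), an RNA-binding protein of pluripotent cells, measured 82.9 and 76.9 FPKM at day 4, against 926 and 1050.4 FPKM at day 2 (-3.61, SE 0.249, adjusted p = 0.000381). Nanog (NM_028016, chromosome 6, 122657586 to 122663796), a homeobox factor at the core of the naive state, measured 10.8 and 12.2 FPKM at day 4, against 118 and 177 FPKM at day 2 (-3.55, SE 0.546, adjusted p = 0.00451). In each of the 4 genes the libraries of the 2 days did not overlap, as in 68.8% of all genes tested. The gap in FPKM between the days was wider than that between the libraries of 1 day. Since these genes were picked with results known, neither is a test of the change.

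**Figure D1:**
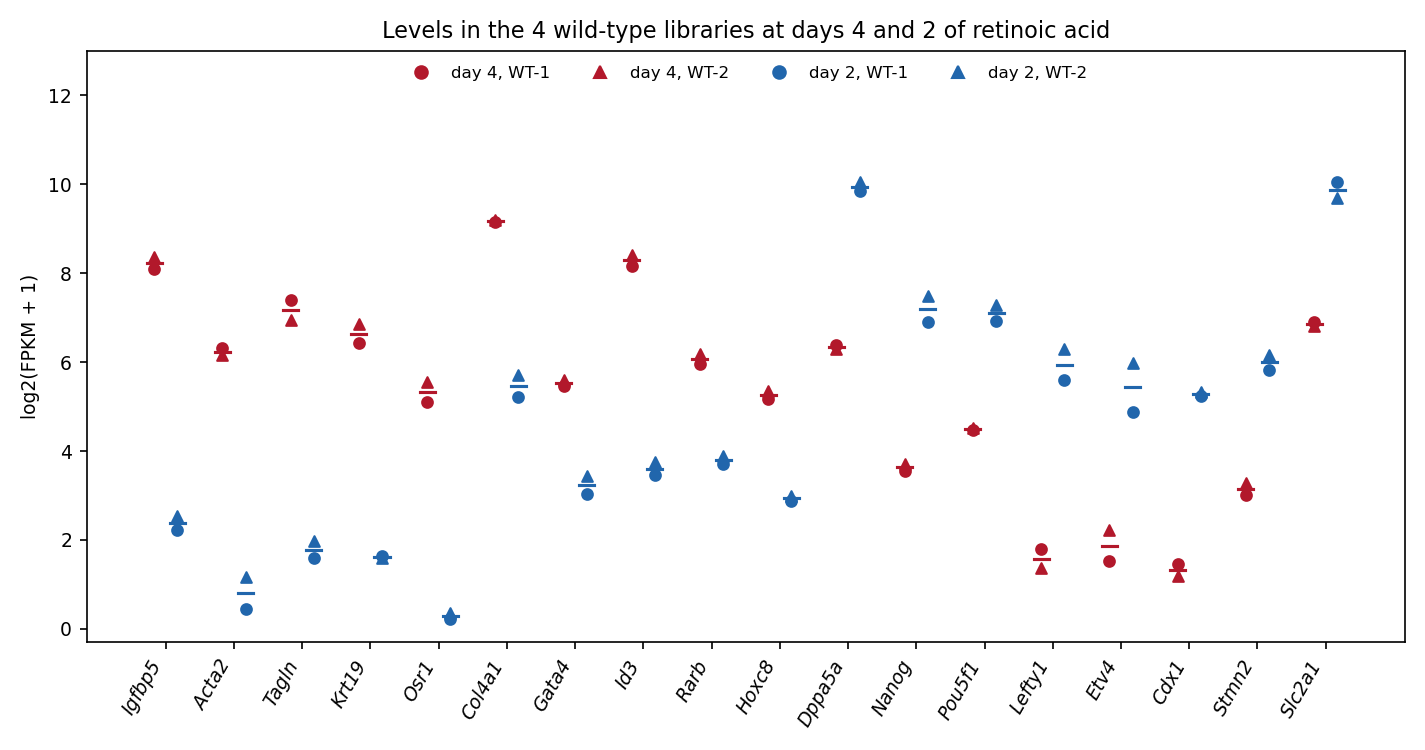
Levels of 18 genes in the WT libraries, on the axis log2(FPKM + 1), with day 4 in red to the left of day 2 in blue, circles for WT-1, triangles for WT-2 and bars for the mean of both. Acta2 lies near 6 at day 4 and near 1 at day 2, and Dppa5a near 6 at day 4 and near 10 at day 2. In each of the genes shown, which were picked for the figure, the libraries of the days do not overlap, as in 68.8% of all genes tested.

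Beside Igfbp5 and Acta2, the highest fold changes among named genes of at least 10 FPKM belonged to genes of several kinds. They included genes of muscle, epithelium, mesoderm and matrix, and also a pepsinogen, a BMP target and a transporter. Tagln, an actin-binding protein of smooth muscle, measured 166 and 122 FPKM at day 4, against 2.02 and 2.91 FPKM at day 2 (5.38, adjusted p = 0.000608). Acta1, skeletal muscle actin, measured 30.7 and 31.3 FPKM at day 4, against 0.304 and 0.789 FPKM at day 2 (4.39, adjusted p = 0.000689). Actin genes are near-identical in their coding parts, so reads may be shared between Acta1, Acta2 and other copies, and Tagln overlaps the neighbouring gene Pcsk7 in libraries that do not mark strand. Osr1, a zinc finger factor of intermediate mesoderm, measured 33.4 and 45.5 FPKM at day 4, against 0.171 and 0.278 FPKM at day 2 (5.03, adjusted p = 0.000302). Krt19, a keratin of simple epithelium, measured 85.3 and 114 FPKM at day 4, against 2.12 and 2.01 FPKM at day 2 (5.02, adjusted p = 0.000553). Pga5, a pepsinogen, measured 72.3 and 50.8 FPKM at day 4, against 0.896 and 1.11 FPKM at day 2 (4.95, adjusted p = 0.000472). Id3, an inhibitor of helix-loop-helix factors and a target of BMP, measured 286 and 339 FPKM at day 4, against 9.99 and 12.5 FPKM at day 2 (4.68, adjusted p = 0.00159). The transporter gene Slc4a9 measured 26.4 and 49.2 FPKM at day 4, against 0.575 and 0.885 FPKM at day 2 (4.43, adjusted p = 0.000608). The libraries of the days did not overlap, in either direction, in 68.8% of all genes tested. In each of the genes just named, picked by their fold change, both day 4 libraries lay above both day 2 libraries. So they did in Ecm1, a secreted matrix protein, which measured 107 and 259.6 FPKM at day 4, against 7.13 and 6.97 FPKM at day 2 (4.38, adjusted p = 0.000472) and differed between the day 4 libraries.

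At the other end, Lefty1, a secreted inhibitor of Nodal, measured 2.48 and 1.57 FPKM at day 4, against 47.1 and 76.9 FPKM at day 2 (-4.36, adjusted p = 0.0134). Tcf15, a helix-loop-helix factor of ES cells leaving the naive state and of somites, measured 3.99 and 2.95 FPKM at day 4, against 53.6 and 88.7 FPKM at day 2 (-3.98, adjusted p = 0.0016). Cdx1, a homeobox factor that acts on Hox genes and is induced early by RA, measured 1.73 and 1.30 FPKM at day 4, against 36.5 and 39.3 FPKM at day 2 (-3.96, adjusted p = 0.000427). Etv4, an ETS factor downstream of FGF, measured 1.86 and 3.67 FPKM at day 4, against 28.4 and 62.4 FPKM at day 2 (-3.56, adjusted p = 0.00451). Fam25c measured 5.10 and 5.23 FPKM at day 4, against 59.2 and 81.3 FPKM at day 2 (-3.51, adjusted p = 0.00103). Gm14136 measured 4.98 and 2.81 FPKM at day 4, against 39.9 and 53.4 FPKM at day 2 (-3.31, adjusted p = 0.00088). No role is given here for these last 2 genes. The call of Lefty1 was lost without any 1 of the 4 WT libraries. In KO cells, whose spread enters that test, Lefty1 measured 3.27 and 1.17 FPKM at day 4, against 5.32 and 60.1 FPKM at day 2. Among the 5 genes of the highest mean that passed were the housekeeping transcripts Rpl41, Rplp1, Rps12 and Ppia, with small differences of -0.43, -0.39, -0.48 and -0.57. Rpl41 lost its call without any 1 of the 4 WT libraries (adjusted p up to 0.24), Rplp1 without any 1 of the 4 WT libraries (adjusted p up to 0.209), Rps12 without any 1 of the 4 WT libraries (adjusted p up to 0.161) and Ppia without WT-1 at day 2, WT-2 at day 2 and WT-2 at day 4 (adjusted p up to 0.0612). The remaining one, an unnamed locus (XLOC_010406, mm9 chromosome 17, 39979940 to 39984198), measured 1752 and 2663 FPKM at day 4, against 9957 and 11599 FPKM at day 2 (-2.31, adjusted p = 0.00191).

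**Figure D2:**
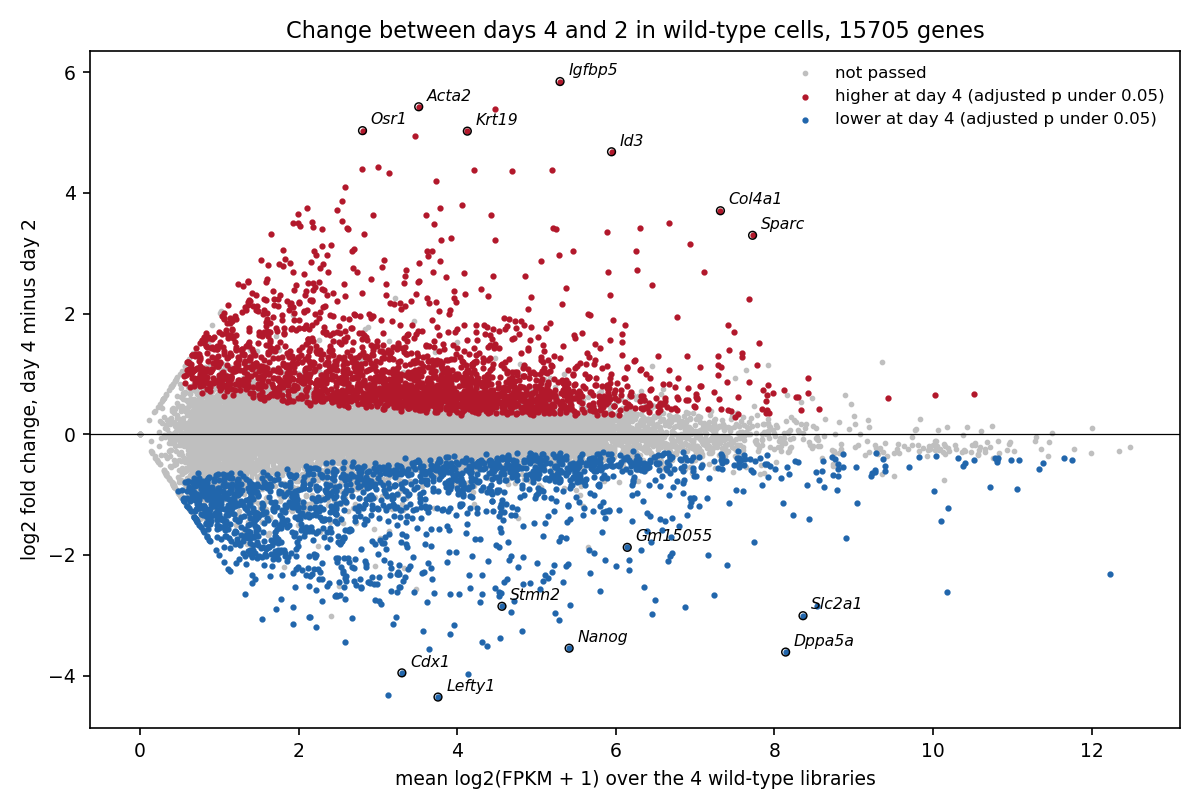
Log2 fold change, day 4 minus day 2, of 15705 genes against their mean log2(FPKM + 1) over the 4 WT libraries, with genes that passed in red (2260 higher at day 4) and blue (1713 lower). Circled genes are named in the text; Igfbp5 at 5.84 and Lefty1 at -4.36 mark the ends among them.

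Most of the listed genes of the pluripotent state fell. Of the list of naive and general pluripotency, 0 of 30 tested members rose, 23 fell and 7 did not pass, with a median of -1.87, where 10.9% of all genes fell. The summed level of its 32 members with an entry, tested or not, was 515 and 478 FPKM at day 4, against 2353 and 2627 FPKM at day 2. Utf1, a chromatin protein of ES cells, measured 7.40 and 5.26 FPKM at day 4, against 69.7 and 78.7 FPKM at day 2 (-3.37, adjusted p = 0.00123). Mylpf, a myosin light chain transcribed in ES cells, measured 3.28 and 2.41 FPKM at day 4, against 44.4 and 28.7 FPKM at day 2 (-3.27, adjusted p = 0.00138). Pou5f1, which encodes Oct4, fell to 21.2 and 22.0 FPKM at day 4, against 120.1 and 154 FPKM at day 2 (-2.60, adjusted p = 0.00476). Zfp42 (Rex1), a zinc finger gene of ES cells, fell to 14.5 and 14.6 FPKM at day 4, against 70.0 and 91.3 FPKM at day 2 (-2.38, adjusted p = 0.00324). Esrrb, an orphan nuclear receptor, fell to 6.95 and 5.93 FPKM at day 4, against 44.4 and 56.4 FPKM at day 2 (-2.78, adjusted p = 0.0069). Sox2, the partner of Oct4 and a neural gene as well, measured 19.6 and 22.6 FPKM at day 4, against 73.9 and 67.8 FPKM at day 2 (-1.70, adjusted p = 0.0116). Pou5f1, Zfp42, Esrrb, Sox2, Dppa5a and Nanog were each still above 5 FPKM in both day 4 libraries. Klf4, chosen after its values were seen as a member that did not pass, measured 11.9 and 14.0 FPKM at day 4, against 10.0 and 11.8 FPKM at day 2 (0.23, adjusted p = 0.373). Sox2 lost its call without any 1 of the 4 WT libraries (adjusted p up to 0.0681) and Esrrb without WT-2 at day 2 (adjusted p up to 0.0513).

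The primed epiblast, the state that follows the naive one in the embryo, is marked by Nodal signalling and by the factors of the list next described. Of it, 0 of 11 tested members rose, 9 fell and 2 did not pass, with a median of -1.15. Nodal itself measured 4.88 and 2.75 FPKM at day 4, against 32.5 and 30.2 FPKM at day 2 (-2.78, adjusted p = 0.00103). Its inhibitor Lefty2 measured 0.220 and 0.194 FPKM at day 4, against 5.38 and 11.7 FPKM at day 2 (-2.90, adjusted p = 0.0165). Pou3f1 (Oct6), a POU factor of epiblast and neural plate, measured 0.423 and 0.668 FPKM at day 4, against 13.0 and 10.3 FPKM at day 2 (-3.03, adjusted p = 0.000608). Lefty2 lost its call without WT-2 at day 2, WT-1 at day 4 and WT-2 at day 4 (adjusted p up to 0.107). In the list, 3 fell without WT-1 at day 4 or WT-2 at day 4 and 5 fell without WT-2 at day 2. Transcripts of FGF signalling through ERK and of its negative feedback made up a further list. In it 4 of 18 tested members rose, 11 fell and 3 did not pass, with a median of -0.94. Etv5, an ETS factor like Etv4, measured 9.30 and 7.43 FPKM at day 4, against 50.6 and 62.1 FPKM at day 2 (-2.62, adjusted p = 0.0016). Dusp6, a phosphatase that inactivates ERK, measured 19.0 and 12.7 FPKM at day 4, against 73.0 and 86.7 FPKM at day 2 (-2.28, adjusted p = 0.00241). Spry4, an inhibitor of receptor signalling, measured 0.496 and 0.199 FPKM at day 4, against 6.25 and 9.83 FPKM at day 2 (-2.73, adjusted p = 0.00256). The 4 members that rose included FGF receptors, chosen here after their values were seen. Fgfr2 measured 32.6 and 38.1 FPKM at day 4, against 13.4 and 11.5 FPKM at day 2 (1.43, adjusted p = 0.00464). Fgfr4 measured 6.63 and 6.84 FPKM at day 4, against 1.63 and 2.02 FPKM at day 2 (1.46, adjusted p = 0.00177). Of the FGF genes 2 rose without any 1 of the 4 WT libraries, 5 fell without WT-2 at day 2, 6 fell without WT-1 at day 2 or WT-2 at day 4 and 7 fell without WT-1 at day 4.

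The cleavage-stage list holds genes of the Zscan4 and Tcstv families that are transcribed in rare ES cells resembling the early embryo. Of it, 0 of 10 tested members rose, 9 fell and 1 did not pass, with a median of -2.32. Tmem92 measured 11.2 and 5.85 FPKM at day 4, against 72.4 and 45.4 FPKM at day 2 (-2.67, adjusted p = 0.00334). Tcstv1 measured 15.8 and 7.60 FPKM at day 4, against 76.6 and 57.6 FPKM at day 2 (-2.49, adjusted p = 0.00678). Tcstv3 measured 13.4 and 6.46 FPKM at day 4, against 71.1 and 43.2 FPKM at day 2 (-2.45, adjusted p = 0.00726). Gm4340 measured 16.6 and 8.43 FPKM at day 4, against 112 and 43.2 FPKM at day 2 (-2.46, adjusted p = 0.0132). At day 4 and at day 2 alike these 4 genes were higher in WT-1 than in WT-2. Members of these families are near-identical copies, so their values are uncertain one by one. Tcstv3 lost its call without WT-1 at day 2 and WT-2 at day 4 (adjusted p up to 0.0524) and Gm4340 without WT-1 at day 2 and WT-2 at day 4 (adjusted p up to 0.0863). In all, 3 fell without WT-1 at day 2 or WT-2 at day 4.

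Enzymes of DNA methylation and Polycomb proteins, which both hold genes silent, changed in part. Of the DNA methylation list, 1 of 11 tested members rose, 4 fell and 6 did not pass, with a median of -0.53. Dnmt3l, the cofactor of de novo methylation, measured 1.96 and 1.46 FPKM at day 4, against 14.5 and 8.87 FPKM at day 2 (-2.20, adjusted p = 0.00247). The de novo enzyme Dnmt3b measured 9.28 and 10.7 FPKM at day 4, against 23.8 and 22.8 FPKM at day 2 (-1.15, adjusted p = 0.00383). Uhrf1, which brings the maintenance enzyme to replicated DNA, measured 65.0 and 65.5 FPKM at day 4, against 102 and 97.6 FPKM at day 2 (-0.60, adjusted p = 0.00709). That enzyme, Dnmt1, chosen after its values were seen, measured 88.7 and 88.0 FPKM at day 4, against 92.5 and 91.2 FPKM at day 2 and did not pass (-0.06, adjusted p = 0.674). Tet3, an enzyme that oxidizes methylated cytosine, rose to 8.08 and 9.47 FPKM at day 4, against 2.30 and 2.63 FPKM at day 2 (1.49, adjusted p = 0.000945). Where 14.4% of all genes rose and 10.9% fell, 1 of 19 tested Polycomb members rose and 5 fell. Of the Polycomb list 13 did not pass, with a median of -0.16. In it, 3 fell without any 1 of the 4 WT libraries. Phc1, a subunit of the complex PRC1, measured 44.5 and 43.5 FPKM at day 4, against 119.8 and 122 FPKM at day 2 (-1.44, adjusted p = 0.00184). Mtf2, which recruits PRC2, measured 12.0 and 10.8 FPKM at day 4, against 26.9 and 29.1 FPKM at day 2 (-1.22, adjusted p = 0.0018). E130012A19Rik, the entry matched to a list gene through its synonym, measured 81.1 and 81.3 FPKM at day 4, against 155 and 164 FPKM at day 2 (-0.97, adjusted p = 0.0061). The PRC2 enzyme Ezh2, chosen after its values were seen, measured 28.2 and 27 FPKM at day 4, against 32.0 and 38.7 FPKM at day 2 and did not pass (-0.34, adjusted p = 0.0713).

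Haunt, listed as Gm15055 (ENSMUSG00000085412, chromosome 6, 52052948 to 52062531, a noncoding RNA), fell between the days. It measured 31.8 and 40.6 FPKM at day 4, against 128 and 142 FPKM at day 2 (-1.87, SE 0.499, adjusted p = 0.0307). The call was lost without any 1 of the 4 WT libraries, with fold changes of -2.05 to -1.70. The pooled spread took in the KO cells, where Haunt was low and the libraries lay further apart on the log2 scale. There it measured 3.08 and 0.447 FPKM at day 4, against 1.13 and 0 FPKM at day 2. Hotairm1, listed as Gm15051 (ENSMUSG00000087658, chromosome 6, 52106901 to 52112118), lies at the 3′ end of the HOXA cluster, and its listed span overlaps another entry. It measured 286 and 341 FPKM at day 4, against 501 and 453 FPKM at day 2 (-0.61, SE 0.120, adjusted p = 0.0109), with its call lost without WT-1 at day 2 and WT-1 at day 4 (adjusted p up to 0.0716). In both RNAs the 2 day 4 libraries lay below both day 2 libraries. Libraries of the 2 days did not overlap, in either direction, in 68.8% of all genes tested. In the list of Haunt, the HOXA noncoding RNAs and the neighbouring coding genes Evx1 and Skap2, 2 of 5 tested members rose, 2 fell and 1 did not pass. Of these, 1 rose without any 1 of the 4 WT libraries, 0 fell without WT-1 at day 2 or WT-1 at day 4 and 1 fell without WT-2 at day 2 or WT-2 at day 4. The antisense RNA 2700086A05Rik (NR_015611, chromosome 6, 52151123 to 52163596) rose, to 5.71 and 8.11 FPKM at day 4, against 0.371 and 1.07 FPKM at day 2 (2.21, SE 0.280, adjusted p = 0.00216). Its span holds Hoxa5 and Hoxa6, which rose as well, and the libraries do not mark strand.

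Of the HOXA cluster, 9 of 11 genes were tested. Here 4 of 9 tested members rose, 0 fell and 5 did not pass, with a median of 0.31. Those that rose lay between Hoxa2 and Hoxa6, where Hoxa3 did not pass. Hoxa2 measured 10.4 and 10.2 FPKM at day 4, against 4.68 and 3.36 FPKM at day 2 (1.18, SE 0.173, adjusted p = 0.00373). Hoxa4 measured 40.6 and 34.7 FPKM at day 4, against 20.7 and 15.3 FPKM at day 2 (1.03, SE 0.159, adjusted p = 0.00448). Hoxa5, the HOXA gene of the highest level at day 4, measured 133 and 172 FPKM at day 4, against 73.2 and 84.4 FPKM at day 2 (0.94, SE 0.149, adjusted p = 0.00517). Hoxa6 measured 5.68 and 10.8 FPKM at day 4, against 2.53 and 2.74 FPKM at day 2 (1.29, SE 0.279, adjusted p = 0.0152) and lost its call without WT-1 at day 2, WT-2 at day 2 and WT-2 at day 4 (adjusted p up to 0.0806). Hoxa4, Hoxa5 and Hoxa6 lie within the listed span of Hoxa3, so reads of these genes cannot be fully told apart. Hoxa3 measured 44.8 and 55.1 FPKM at day 4, against 35.7 and 44.3 FPKM at day 2 and did not pass (0.31, adjusted p = 0.194). Further towards the posterior end none of the tested genes passed. Hoxa7 measured 4.83 and 6.88 FPKM at day 4, against 8.33 and 6.81 FPKM at day 2 (-0.33, adjusted p = 0.295). Hoxa9 measured 0.625 and 1.82 FPKM at day 4, against 0.973 and 2.07 FPKM at day 2 (-0.20, adjusted p = 0.698). Hoxa10 measured 0.659 and 1.78 FPKM at day 4, against 1.61 and 3.11 FPKM at day 2 (-0.61, adjusted p = 0.222). Hoxa9 and Hoxa10 overlapped between the days, with WT-2 above WT-1 on each day, and the sign for Hoxa9 turned without WT-2 at day 2 (0.12) and without WT-1 at day 4 (0.20). Hoxa11 and Hoxa13 were below 1 FPKM in the WT libraries and were not tested.

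In the HOXB cluster 4 of 10 tested members rose, 1 fell and 5 did not pass (median 0.43). In HOXC 4 of 7 tested members rose, 0 fell and 3 did not pass (median 0.91), and in HOXD 3 of 6 tested members rose, 0 fell and 3 did not pass (median 0.54). Hoxb1, a hindbrain gene, fell to 38.1 and 17.3 FPKM at day 4, against 121 and 88.6 FPKM at day 2 (-1.97, SE 0.331, adjusted p = 0.00615). Hoxb3 measured 16.5 and 21.9 FPKM at day 4, against 7.45 and 7.83 FPKM at day 2 (1.21, adjusted p = 0.00212) and overlaps the antisense Hoxb3os. Hoxb7 measured 19.0 and 24.2 FPKM at day 4, against 12.5 and 11.0 FPKM at day 2 (0.82, adjusted p = 0.00945). Hoxb13, the most posterior gene of its cluster, measured 12.2 and 27.9 FPKM at day 4, against 3.36 and 3.41 FPKM at day 2 (2.15, adjusted p = 0.00498), with WT-2 above WT-1 at day 4. Of the HOXC genes, Hoxc8 measured 35.0 and 39.5 FPKM at day 4, against 6.29 and 7.00 FPKM at day 2 (2.32, SE 0.183, adjusted p = 0.000472). Hoxc6 measured 15.1 and 26.7 FPKM at day 4, against 3.74 and 3.99 FPKM at day 2 (2.12, adjusted p = 0.00162). Hoxc9 measured 18.5 and 30.4 FPKM at day 4, against 4.60 and 6.86 FPKM at day 2 (1.90, adjusted p = 0.00324). Hoxc4 measured 32.8 and 34.0 FPKM at day 4, against 20.2 and 14.9 FPKM at day 2 (0.91, adjusted p = 0.00641). In the 4 genes, named since they passed, both day 4 libraries lay above both day 2 libraries. The libraries of the days did not overlap, in either direction, in 68.8% of all genes tested. In the HOXD cluster Hoxd4 measured 7.45 and 8.18 FPKM at day 4, against 1.25 and 0.995 FPKM at day 2 (2.06, adjusted p = 0.00298). Hoxd8 measured 5.13 and 6.64 FPKM at day 4, against 3.12 and 2.13 FPKM at day 2 (0.93, adjusted p = 0.0309). Hoxb7 lost its call without WT-2 at day 2 and WT-2 at day 4 (adjusted p up to 0.066) and Hoxd8 without any 1 of the 4 WT libraries (adjusted p up to 0.171). Of the HOXD genes 1 rose without WT-2 at day 2, WT-1 at day 4 or WT-2 at day 4. Hox proteins bind DNA with TALE cofactors. In the list of these cofactors and Cdx factors 6 of 11 tested members rose, 1 fell and 4 did not pass, with a median of 0.78. Meis1 measured 43.5 and 51.7 FPKM at day 4, against 17.1 and 17.6 FPKM at day 2 (1.40, adjusted p = 0.00197). Meis3 measured 12.6 and 15.9 FPKM at day 4, against 3.66 and 2.26 FPKM at day 2 (1.96, adjusted p = 0.00135). The member that fell was Cdx1, given above.

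**Figure D3:**
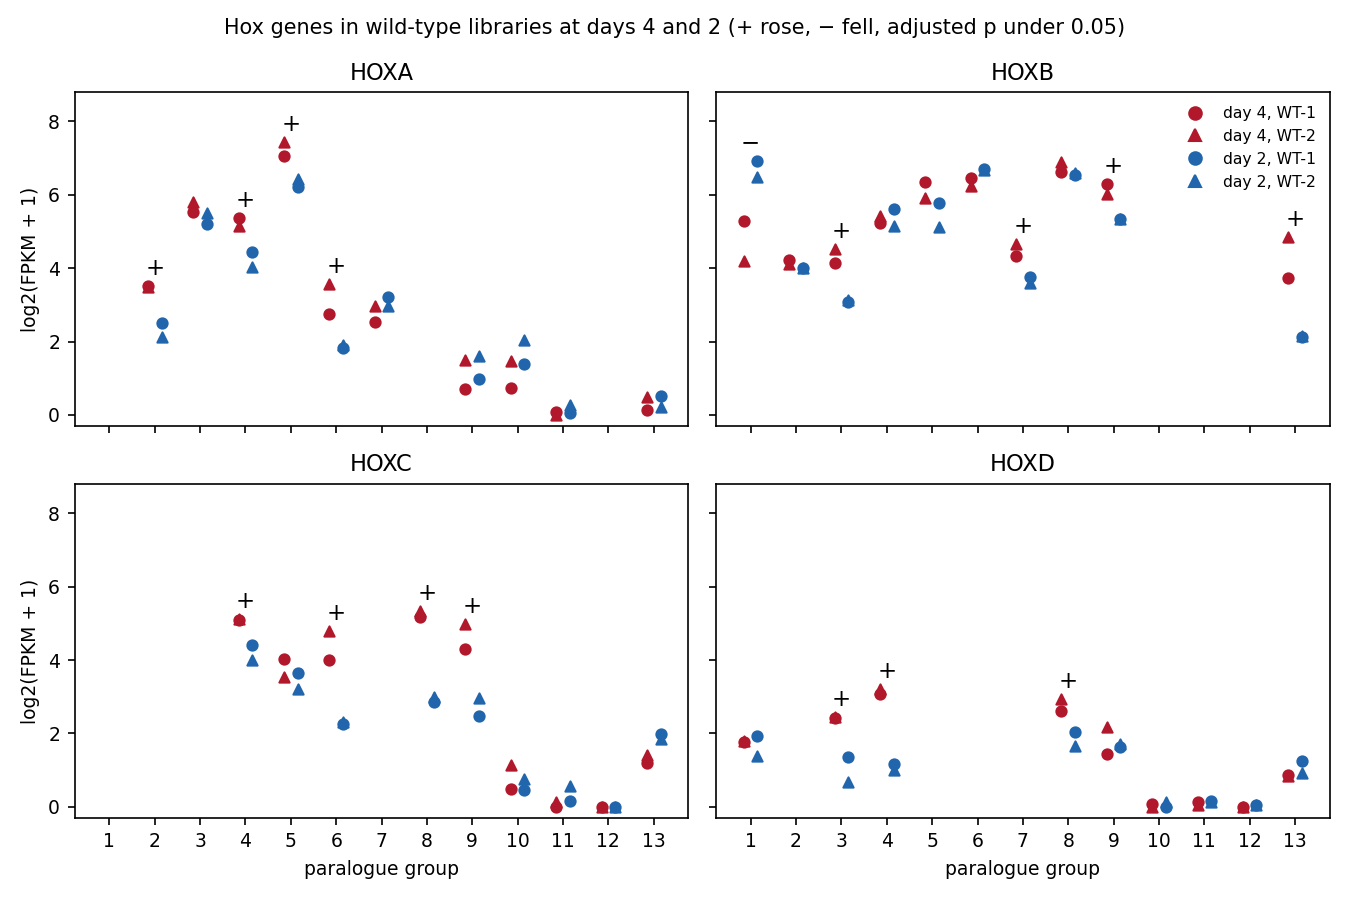
Hox genes of the 4 clusters (not every gene is drawn) by paralogue group, from anterior (1) to posterior (13), on the axis log2(FPKM + 1), with day 4 in red to the left of day 2 in blue, circles for WT-1 and triangles for WT-2. A plus marks genes that rose (4 in HOXA, 4 in HOXB, 4 in HOXC and 3 in HOXD) and a minus the gene that fell (Hoxb1); genes of groups 11 and 12 lie below 1 on both days.

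Transcripts at several steps of the retinoid system were higher at day 4. Of its list, 11 of 23 tested members rose, 1 fell and 11 did not pass, with a median of 0.65. Of the enzymes that make RA, Aldh1a2 measured 20.6 and 30.9 FPKM at day 4, against 3.53 and 2.48 FPKM at day 2 (2.73, adjusted p = 0.00448). Rdh10, which makes its precursor retinal, measured 13.0 and 16.5 FPKM at day 4, against 2.29 and 1.88 FPKM at day 2 (2.35, adjusted p = 0.00118). The orphan receptors Nr2f2 and Nr2f1 (COUP-TFs), RA targets that also bind retinoic acid elements, rose as well. Nr2f2 measured 35.4 and 49.8 FPKM at day 4, against 2.73 and 2.23 FPKM at day 2 (3.63, SE 0.228, adjusted p = 0.000312). Nr2f1 measured 43.2 and 42.4 FPKM at day 4, against 4.13 and 1.96 FPKM at day 2 (3.49, SE 0.294, adjusted p = 0.000608). The receptors and degrading enzymes that follow were chosen after their values were seen. The receptor gene Rarb, itself a target of RA, measured 60.7 and 71.4 FPKM at day 4, against 12.0 and 13.7 FPKM at day 2 (2.27, SE 0.175, adjusted p = 0.000472). Rarg, the receptor of early embryo and ES cells, measured 22.8 and 17.5 FPKM at day 4, against 69.8 and 71.6 FPKM at day 2 (-1.77, SE 0.276, adjusted p = 0.0047) and was the member that fell. Cyp26b1, which degrades RA, measured 125 and 115 FPKM at day 4, against 29.9 and 33.1 FPKM at day 2 (1.90, adjusted p = 0.00168). Cyp26a1, the other main RA-degrading enzyme, measured 738 and 479.6 FPKM at day 4, against 462 and 311 FPKM at day 2 and did not pass (0.65, SE 0.293, adjusted p = 0.145). In it WT-1 lay above WT-2 on each day, with the lower day 4 library just above the higher day 2 library.

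Receptor dimers bind direct repeats of a short site. A repeat spaced by 5 bases (DR5) was searched on both strands of the 250 bases before gene starts, taken from RefSeq for the build GRCm38.p6, a later build than that of the expression values. Of the 64 HOX and retinoid genes listed, 42 had a promoter sequence, with 59 promoters in all. Of these genes 2, Rarb and Cyp26a1, held a DR5. Over all promoters 86 of 32851 held one (0.262%), a share of promoters and not of genes. A repeat spaced by 2 bases (DR2) was found for 1 listed gene, Stra8, against 113 of all promoters (0.344%). The DR5 promoters are shown since one of them belongs to a gene that rose and the other to a gene that was high on both days; capitals mark the DR5. In Rarb it lies 53 to 37 bases before the start (chr14:16575477-16575726, minus strand, given 5′ to 3′ in the direction of the gene), and in Cyp26a1 32 to 16 bases before it, reading on the opposite strand (chr19:37697558-37697807, plus strand). A match is a description of letters and not of binding.
Rarb: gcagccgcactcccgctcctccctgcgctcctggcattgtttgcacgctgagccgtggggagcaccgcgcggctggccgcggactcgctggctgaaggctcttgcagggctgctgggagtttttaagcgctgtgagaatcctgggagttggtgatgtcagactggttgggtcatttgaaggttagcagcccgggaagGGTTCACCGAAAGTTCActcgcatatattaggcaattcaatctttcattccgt
Cyp26a1: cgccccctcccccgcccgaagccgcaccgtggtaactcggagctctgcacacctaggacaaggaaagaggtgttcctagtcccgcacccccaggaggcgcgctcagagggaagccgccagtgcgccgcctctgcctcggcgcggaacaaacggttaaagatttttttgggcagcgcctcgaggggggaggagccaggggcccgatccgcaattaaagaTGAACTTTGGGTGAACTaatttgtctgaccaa

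Genes of extraembryonic endoderm, the layer that forms yolk sac and its thick basement membrane, rose in the largest share of any list with 20 or more tested members. Of them, 20 of 26 tested members rose, 2 fell and 4 did not pass, with a median of 2.01. The summed level of its 29 members with an entry, tested or not, was 2845 and 2700.4 FPKM at day 4, against 685 and 626 FPKM at day 2. Basement membrane genes led in level. Col4a1 (NM_009931, chromosome 8, 11198423 to 11312826), a chain of type IV collagen, measured 563 and 589 FPKM at day 4, against 36.2 and 51.6 FPKM at day 2 (3.70, SE 0.197, adjusted p = 0.000302). Its neighbour and partner chain Col4a2 measured 327 and 355 FPKM at day 4, against 25.4 and 33.4 FPKM at day 2 (3.50, SE 0.177, adjusted p = 0.000302). Sparc, a matrix protein named after its values were seen, measured 714 and 614 FPKM at day 4, against 64.3 and 68.8 FPKM at day 2 (3.30, adjusted p = 0.000312). Srgn, a proteoglycan core protein, measured 70.6 and 79.2 FPKM at day 4, against 5.52 and 4.71 FPKM at day 2 (3.63, adjusted p = 0.00213). Among carrier proteins of yolk sac and liver, Ttr measured 7.05 and 8.96 FPKM at day 4, against 0.0764 and 0.496 FPKM at day 2 (2.82, adjusted p = 0.000665). Afp measured 1.53 and 4.09 FPKM at day 4, against 0.0822 and 0.134 FPKM at day 2 (1.70, adjusted p = 0.0101). Apoa1 measured 8.69 and 23.2 FPKM at day 4, against 0.598 and 0.108 FPKM at day 2 (3.52, adjusted p = 0.00184). Each of these 3 was higher in WT-2 than in WT-1 at day 4 and below 1 FPKM at day 2. The transcription factors were more mixed. Gata4 measured 43.4 and 47.6 FPKM at day 4, against 7.24 and 9.83 FPKM at day 2 (2.30, SE 0.147, adjusted p = 0.000312). Foxa2 measured 16.1 and 22.8 FPKM at day 4, against 3.14 and 4.53 FPKM at day 2 (2.08, adjusted p = 0.00213). Sox17 measured 5.14 and 3.95 FPKM at day 4, against 2.38 and 2.20 FPKM at day 2 (0.75, adjusted p = 0.0227). Gata6 measured 33.6 and 43.1 FPKM at day 4, against 14.1 and 24.9 FPKM at day 2 (0.98, adjusted p = 0.0758), which did not pass. Of the defining markers fixed for this cell type (Gata4, Gata6, Sox17, Col4a1, Afp and Ttr) none was at 0 in any WT library. Apoe, named after its values were seen, was 1 of the 2 members that fell, at 70.1 and 45.9 FPKM at day 4, against 233 and 149.7 FPKM at day 2 (-1.70, adjusted p = 0.0138). Sox17 lost its call without any 1 of the 4 WT libraries (adjusted p up to 0.136), Afp without WT-1 at day 2 and WT-2 at day 2 (adjusted p up to 0.0583) and Apoe without WT-1 at day 2 and WT-2 at day 4 (adjusted p up to 0.0893). In the list, 0 fell without WT-1 at day 2 or WT-2 at day 4 and 1 fell without WT-1 at day 4.

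Keratins of simple epithelium rose with them. In the list of trophoblast and simple epithelium, 6 of 12 tested members rose, 2 fell and 4 did not pass, with a median of 1.40. Krt8 and Krt18 pair in filaments. Krt8 measured 96.6 and 154 FPKM at day 4, against 10.9 and 10.4 FPKM at day 2 (3.41, adjusted p = 0.000846). Krt18 measured 94.0 and 155 FPKM at day 4, against 11.2 and 9.55 FPKM at day 2 (3.42, adjusted p = 0.000472). The transcription factor gene Gata3 measured 14.9 and 24.0 FPKM at day 4, against 0.693 and 1.06 FPKM at day 2 (3.42, adjusted p = 0.000864). In these 3 genes and Krt19 WT-2 was the higher library at day 4. Other transcription factors of the list differed from Gata3. Cdx2, a defining marker of trophoblast that did not pass, measured 1.23 and 2.58 FPKM at day 4, against 0.837 and 0.475 FPKM at day 2 (0.78, adjusted p = 0.0995). Eomes measured 1.47 and 1.09 FPKM at day 4, against 3.61 and 5.76 FPKM at day 2 (-1.30, adjusted p = 0.0171). Tfap2c, named after its values were seen, measured 0.954 and 0.510 FPKM at day 4, against 10.3 and 5.37 FPKM at day 2 (-2.30, adjusted p = 0.00401). Tpbpa, another defining marker, was at 0 in all 4 WT libraries. Eomes lost its call without WT-2 at day 2, WT-1 at day 4 and WT-2 at day 4 (adjusted p up to 0.112). For that list, 1 fell without WT-2 at day 2, WT-1 at day 4 or WT-2 at day 4. In the list of cadherins, epithelium and epithelial-mesenchymal transition (EMT), 10 of 20 tested members rose, 1 fell and 9 did not pass, with a median of 0.72. Cdh2 (N-cadherin) measured 28.5 and 30.7 FPKM at day 4, against 6.69 and 6.06 FPKM at day 2 (2.05, SE 0.156, adjusted p = 0.000472). Cdh3 (P-cadherin) measured 9.81 and 9.37 FPKM at day 4, against 2.44 and 1.70 FPKM at day 2 (1.80, adjusted p = 0.00186). Cdh6 measured 7.88 and 12.0 FPKM at day 4, against 1.02 and 0.793 FPKM at day 2 (2.50, adjusted p = 0.00251). The tight junction gene Cldn7 measured 6.92 and 12.7 FPKM at day 4, against 1.40 and 0.641 FPKM at day 2 (2.39, adjusted p = 0.0034). Cdh1 (E-cadherin) and Epcam, named after their values were seen, did not pass. Cdh1 measured 35.8 and 40.7 FPKM at day 4, against 46.1 and 44.0 FPKM at day 2 (-0.23, adjusted p = 0.625). Epcam measured 10.4 and 12.4 FPKM at day 4, against 17.8 and 15.6 FPKM at day 2 (-0.51, adjusted p = 0.0716). Over the cadherin list, 6 rose without WT-2 at day 2 or WT-1 at day 4 and 0 fell without WT-1 at day 2 or WT-1 at day 4.

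**Figure D4:**
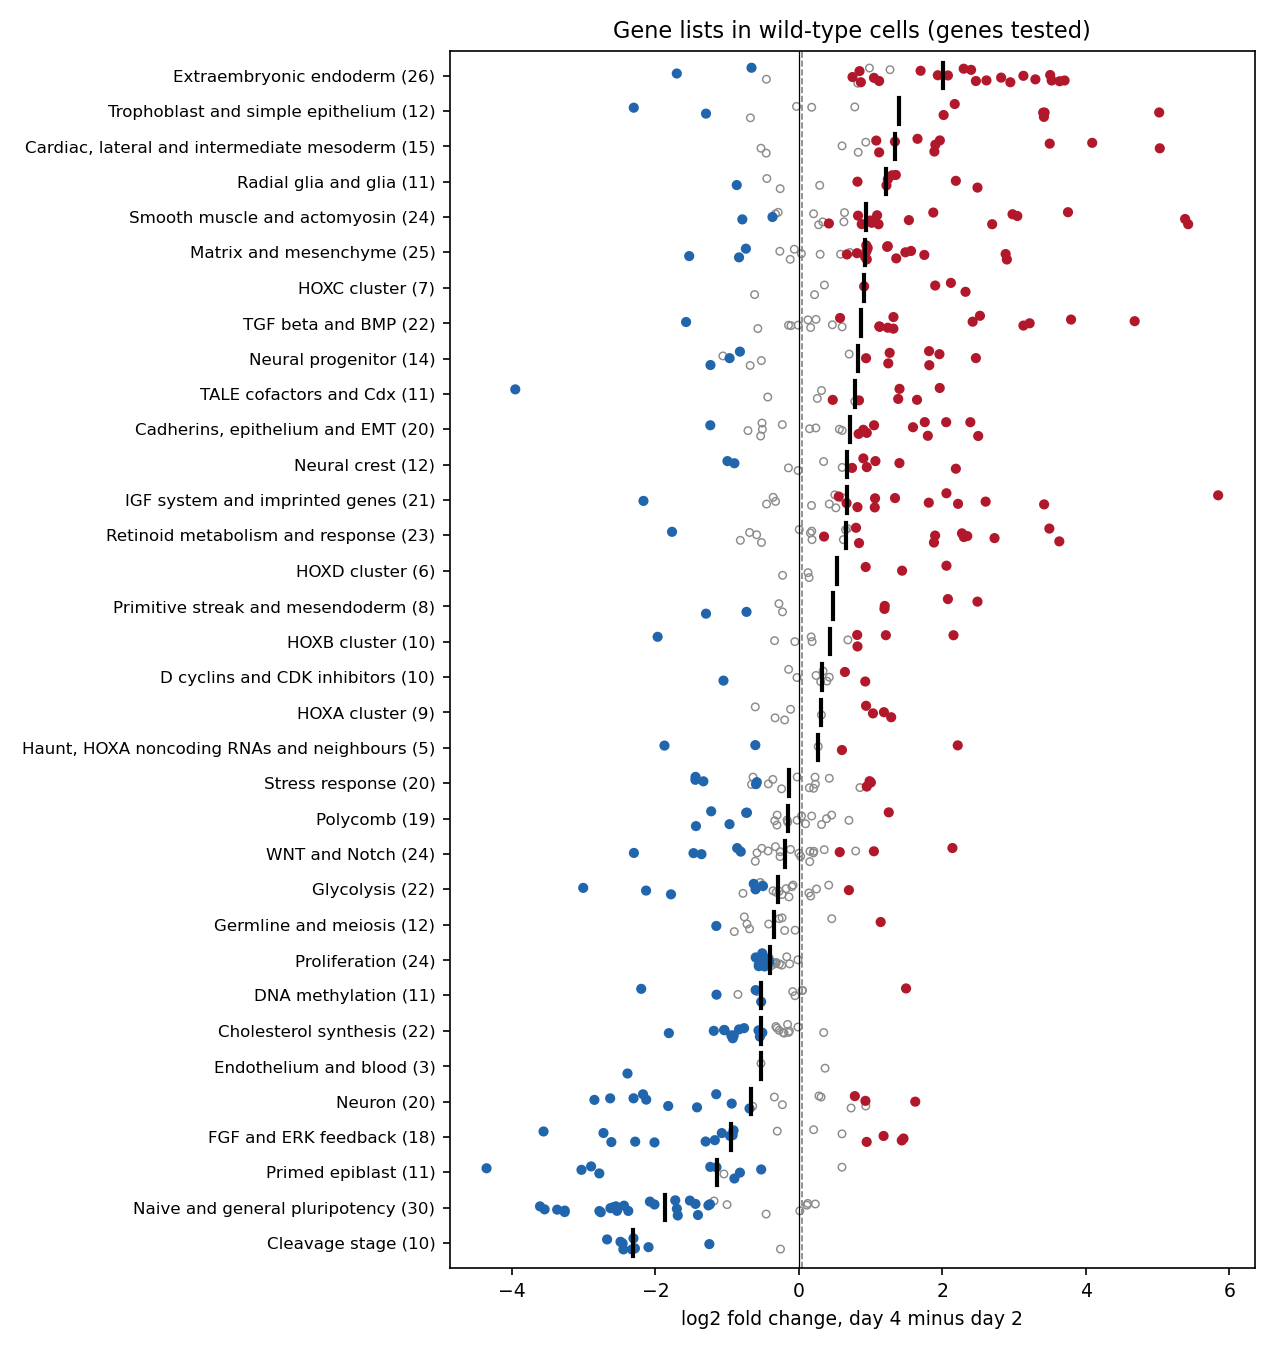
Log2 fold change, day 4 minus day 2, of each tested member of the 34 gene lists (number tested in brackets), with filled points for members that passed (red rose, blue fell), open points for the others, a black bar at each list's median and a dashed line at the median of all genes (0.04). Medians run from -2.32 in the cleavage-stage list to 2.01 in extraembryonic endoderm.

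The smooth muscle and actomyosin list, with contractile actin, myosin and their regulators, was higher at day 4 in most of its genes. In it 15 of 24 tested members rose, 2 fell and 7 did not pass, with a median of 0.93. Beside Acta2 and Tagln, Myl9, the regulatory light chain of myosin, measured 51.5 and 48.1 FPKM at day 4, against 3.19 and 2.39 FPKM at day 2 (3.75, SE 0.311, adjusted p = 0.00059). Cnn1, a calponin of differentiated smooth muscle, measured 12.2 and 12.0 FPKM at day 4, against 0.825 and 0.517 FPKM at day 2 (2.98, SE 0.174, adjusted p = 0.000302). Its broadly expressed relative Cnn2 measured 123 and 128 FPKM at day 4, against 17.7 and 11.6 FPKM at day 2 (3.04, SE 0.290, adjusted p = 0.000872). Of the 4 defining markers, Myh11, the heavy chain of mature smooth muscle, was low on both days at 1.87 and 1.29 FPKM at day 4, against 0.761 and 0.549 FPKM at day 2 (0.64, adjusted p = 0.0597). In all the members named so far both day 4 libraries lay above both day 2 libraries. Over all genes tested, the days did not overlap, in either direction, in 68.8%. Of the list, 0 fell without WT-1 at day 2 or WT-2 at day 4 and 1 fell without WT-2 at day 2 or WT-1 at day 4.

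Genes of this kind are known to carry a CArG box, the site bound by serum response factor. The 21 listed genes with a promoter sequence had 23 promoters. Of these genes 4 (Myl9, Cnn2, Vcl and Srf) held the box in the 250 bases before their start. Over all promoters it was found in 482 of 32851 (1.47%), a share of promoters and not of genes. Vcl and Srf are named for this match only. Vcl, which anchors actin at adhesions, measured 71.6 and 69.4 FPKM at day 4, against 39.8 and 38.9 FPKM at day 2 (0.82, SE 0.132, adjusted p = 0.00517). Srf, the factor itself, measured 31.1 and 32.3 FPKM at day 4, against 21.8 and 18.8 FPKM at day 2 and did not pass (0.63, SE 0.214, adjusted p = 0.0694). The promoters of the 3 genes that rose are printed with the CArG box in capitals, 161 to 152 bases before the start in Myl9 (chr2:156775214-156775463), 56 to 47 in Cnn2 (chr10:79988350-79988599) and 227 to 218 in Vcl (chr14:20929148-20929397), each on the plus strand of GRCm38.p6. No box within these windows says nothing about sites elsewhere, and Tagln was not searched.
Myl9: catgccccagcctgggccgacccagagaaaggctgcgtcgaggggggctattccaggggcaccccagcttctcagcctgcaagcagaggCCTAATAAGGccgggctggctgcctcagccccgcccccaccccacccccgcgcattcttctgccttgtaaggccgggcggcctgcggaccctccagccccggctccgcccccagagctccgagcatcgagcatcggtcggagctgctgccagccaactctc
Cnn2: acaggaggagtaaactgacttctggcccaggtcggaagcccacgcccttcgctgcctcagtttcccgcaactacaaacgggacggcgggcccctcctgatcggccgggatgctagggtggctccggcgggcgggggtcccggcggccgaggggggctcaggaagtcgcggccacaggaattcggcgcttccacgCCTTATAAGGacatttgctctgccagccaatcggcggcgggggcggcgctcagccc
Vcl: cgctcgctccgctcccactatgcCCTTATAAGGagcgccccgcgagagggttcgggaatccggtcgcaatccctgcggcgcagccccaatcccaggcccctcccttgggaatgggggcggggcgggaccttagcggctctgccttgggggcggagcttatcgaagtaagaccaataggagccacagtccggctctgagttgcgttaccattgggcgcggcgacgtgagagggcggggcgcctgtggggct

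Matrix and mesenchyme genes rose in part. In that list 15 of 25 tested members rose, 3 fell and 7 did not pass, with a median of 0.92. Of its members 7 rose without WT-2 at day 2 or WT-2 at day 4 and 8 rose without WT-1 at day 4. Col12a1, a collagen that sits on other fibres, measured 9.40 and 8.01 FPKM at day 4, against 0.283 and 0.313 FPKM at day 2 (2.90, adjusted p = 0.000365). Timp3, an inhibitor of matrix proteases, measured 22.8 and 21.0 FPKM at day 4, against 2.31 and 1.90 FPKM at day 2 (2.88, adjusted p = 0.000693). Fbn2, a fibrillin, measured 39.6 and 38.8 FPKM at day 4, against 9.95 and 12.1 FPKM at day 2 (1.75, adjusted p = 0.000408). Loxl2, which crosslinks collagen, measured 24.6 and 33.8 FPKM at day 4, against 9.04 and 9.18 FPKM at day 2 (1.56, adjusted p = 0.004). The markers fixed for fibroblasts and feeder cells were low and mixed. Col1a1 measured 1.89 and 1.57 FPKM at day 4, against 2.06 and 1.88 FPKM at day 2 (-0.12, adjusted p = 0.729). Col1a2 measured 4.07 and 3.79 FPKM at day 4, against 1.06 and 0.795 FPKM at day 2 (1.36, adjusted p = 0.00529). Thy1 measured 2.27 and 0.942 FPKM at day 4, against 6.78 and 5.81 FPKM at day 2 (-1.53, adjusted p = 0.00671). Dcn stayed at or below 0.158 FPKM. Fn1 (fibronectin), named after its values were seen, fell, at 161 and 181 FPKM at day 4, against 306 and 306 FPKM at day 2 (-0.84, adjusted p = 0.00136).

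Genes of cardiac, lateral and intermediate mesoderm were higher as well. In their list 10 of 15 tested members rose, 0 fell and 5 did not pass, with a median of 1.34. Foxc2, a forkhead factor of mesenchyme, measured 20.3 and 28.0 FPKM at day 4, against 0.491 and 0.432 FPKM at day 2 (4.09, adjusted p = 0.00111). Actc1, cardiac actin and again a near-identical actin copy, measured 12.7 and 11.0 FPKM at day 4, against 0.131 and 0.142 FPKM at day 2 (3.50, adjusted p = 0.000828). Tbx2, a T-box factor of heart and limb, measured 11.2 and 14.1 FPKM at day 4, against 2.32 and 2.64 FPKM at day 2 (1.96, adjusted p = 0.000945). Of primitive streak and mesendoderm genes, which mark the first mesoderm, 4 of 8 tested members rose, 2 fell and 2 did not pass. Pdgfra, a growth factor receptor of mesoderm, glia and primitive endoderm, measured 16.9 and 22.2 FPKM at day 4, against 2.04 and 3.34 FPKM at day 2 (2.49, adjusted p = 0.000608). Lhx1 measured 12.6 and 20.5 FPKM at day 4, against 6.01 and 6.97 FPKM at day 2 (1.19, adjusted p = 0.013). Lhx1 lost its call without WT-1 at day 2, WT-2 at day 2 and WT-2 at day 4 (adjusted p up to 0.0786). The streak markers T and Mixl1 stayed below 1 FPKM in the 4 libraries and were not tested, T at 0.377 and 0.680 FPKM at day 4 and 0.0840 and 0.182 FPKM at day 2. In the streak list 2 rose without WT-1 at day 2, WT-2 at day 2 or WT-2 at day 4, 0 fell without WT-2 at day 2, WT-1 at day 4 or WT-2 at day 4 and 1 fell without WT-1 at day 2.

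The list of TGF beta and BMP ligands, inhibitors and targets was summed over its 25 members with an entry, tested or not. It had 608 and 721 FPKM at day 4, against 118 and 117 FPKM at day 2. Id3 alone held 286 and 339 FPKM at day 4, against 9.99 and 12.5 FPKM at day 2. Of the list, 12 of 22 tested members rose, 1 fell and 9 did not pass, with a median of 0.86. The BMP target Id2 measured 50.4 and 74.3 FPKM at day 4, against 4.36 and 2.75 FPKM at day 2 (3.79, SE 0.242, adjusted p = 0.000312), beside Id3 given above (4.68, SE 0.536, adjusted p = 0.00159). Cyr61, a matrix-bound protein induced by TGF beta and YAP, measured 70.2 and 63.5 FPKM at day 4, against 5.47 and 7.21 FPKM at day 2 (3.22, adjusted p = 0.000742). Fst, which traps activin, measured 20.3 and 10.6 FPKM at day 4, against 0.653 and 0.942 FPKM at day 2 (3.13, adjusted p = 0.00241). The member that fell lost its call without any 1 of the 4 WT libraries. Of the WNT and Notch list, 3 of 24 tested members rose, 5 fell and 16 did not pass, with a median of -0.19. For comparison, 14.4% of all genes rose and 10.9% fell. Wnt5a, a ligand of the noncanonical WNT pathway, rose to 5.87 and 5.73 FPKM at day 4, against 0.465 and 0.624 FPKM at day 2 (2.14, adjusted p = 0.000968). Sfrp2, a secreted WNT antagonist, measured 34.8 and 34.1 FPKM at day 4, against 15.1 and 17.3 FPKM at day 2 (1.05, adjusted p = 0.019), with its call lost without any 1 of the 4 WT libraries (adjusted p up to 0.103). Notum, an enzyme that inactivates WNT ligands and a target of the canonical pathway, measured 2.02 and 1.35 FPKM at day 4, against 13.6 and 10.8 FPKM at day 2 (-2.30, adjusted p = 0.00617). The Notch ligand Dll1 measured 1.38 and 1.94 FPKM at day 4, against 5.87 and 5.70 FPKM at day 2 (-1.36, adjusted p = 0.00253). Of the WNT and Notch genes 1 rose without WT-2 at day 2, WT-1 at day 4 or WT-2 at day 4, 2 fell without WT-1 at day 2 and 3 fell without WT-2 at day 2, WT-1 at day 4 or WT-2 at day 4.

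Neural progenitor genes and neuronal genes differed in the sign of their medians. Among neural progenitor genes 7 of 14 tested members rose, 3 fell and 4 did not pass, with a median of 0.82 and fold changes down to -1.23. The 3 that fell are not among the members named below. Sox11 measured 12.5 and 15.2 FPKM at day 4, against 3.06 and 2.58 FPKM at day 2 (1.96, adjusted p = 0.00138). Pax6, a factor of dorsal and cortical progenitors and of eye, measured 41.8 and 33.8 FPKM at day 4, against 19.4 and 12.0 FPKM at day 2 (1.25, adjusted p = 0.00646). Nes, the intermediate filament nestin, measured 13.0 and 10.9 FPKM at day 4, against 5.12 and 3.71 FPKM at day 2 (1.26, adjusted p = 0.0108). Irx3 measured 15.2 and 24.4 FPKM at day 4, against 6.19 and 3.63 FPKM at day 2 (1.81, adjusted p = 0.0156). Sox1, the gene that carries the reporter in this line, did not pass, at 2.07 and 3.88 FPKM at day 4, against 5.06 and 5.34 FPKM at day 2 (-0.68, adjusted p = 0.0906). Nes lost its call without WT-2 at day 2 and WT-1 at day 4 (adjusted p up to 0.0748) and Irx3 without WT-2 at day 2 and WT-2 at day 4 (adjusted p up to 0.101). Among the progenitor genes 3 rose without WT-2 at day 2, 4 rose without WT-2 at day 4, 0 fell without WT-1 at day 2, WT-1 at day 4 or WT-2 at day 4 and 1 fell without WT-2 at day 2.

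Of the neuron list, more members fell than rose. In the list 3 of 20 tested members rose, 10 fell and 7 did not pass, with a median of -0.67 and fold changes up to 1.62. The 3 that rose are not among the members named below. The summed level of its 30 members with an entry, tested or not, was 56.6 and 71.1 FPKM at day 4, against 205 and 208 FPKM at day 2. Stmn2, a tubulin-binding protein of growing axons, measured 7.01 and 8.70 FPKM at day 4, against 55.8 and 70.2 FPKM at day 2 (-2.85, SE 0.442, adjusted p = 0.00461). Tubb3, neuronal tubulin, measured 3.07 and 3.43 FPKM at day 4, against 18.8 and 16.5 FPKM at day 2 (-2.13, adjusted p = 0.00737). Crmp1, an axon guidance protein, measured 3.87 and 4.80 FPKM at day 4, against 26.9 and 23.7 FPKM at day 2 (-2.31, adjusted p = 0.00213). Ina, a neurofilament subunit, measured 3.76 and 3.29 FPKM at day 4, against 22.4 and 16.8 FPKM at day 2 (-2.17, adjusted p = 0.00232). The peripheral neurofilament gene Prph measured 3.92 and 4.56 FPKM at day 4, against 33.5 and 29.5 FPKM at day 2 (-2.63, adjusted p = 0.0103). Elavl3, a neuronal RNA-binding protein, measured 0.513 and 0.893 FPKM at day 4, against 2.43 and 2.06 FPKM at day 2 (-0.94, adjusted p = 0.014). Tubb3 lost its call without WT-1 at day 2 (adjusted p up to 0.0507), Prph without any 1 of the 4 WT libraries (adjusted p up to 0.0625) and Elavl3 without WT-1 at day 2, WT-2 at day 2 and WT-1 at day 4 (adjusted p up to 0.0861). Of neuronal genes 1 rose without any 1 of the 4 WT libraries, 5 fell without WT-1 at day 2 and 6 fell without WT-1 at day 4. Radial glia and glia genes had a median of the other sign. Of these 7 of 11 tested members rose, 1 fell and 3 did not pass, with a median of 1.22. In that list 0 fell without any 1 of the 4 WT libraries. Sox9, a factor of glia, cartilage and many epithelia, measured 30.9 and 34.6 FPKM at day 4, against 4.99 and 8.14 FPKM at day 2 (2.19, adjusted p = 0.00451). Vim, the filament vimentin of progenitors and mesenchyme, measured 293 and 319 FPKM at day 4, against 112 and 127 FPKM at day 2 (1.35, adjusted p = 0.00484). Glul, glutamine synthetase, measured 137 and 151 FPKM at day 4, against 61.4 and 54.8 FPKM at day 2 (1.30, adjusted p = 0.00172). These genes are shared with other cell types, and Vim, Sox9 and Pdgfra are not particular to glia.

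Neural crest genes were mixed. Among them 6 of 12 tested members rose, 2 fell and 4 did not pass, with a median of 0.67. Ednrb, an endothelin receptor of crest cells, measured 7.51 and 7.88 FPKM at day 4, against 2.26 and 2.32 FPKM at day 2 (1.40, adjusted p = 0.0011). Twist1, a factor of mesenchyme, measured 9.89 and 10.7 FPKM at day 4, against 5.16 and 4.59 FPKM at day 2 (0.95, adjusted p = 0.0148). The defining crest markers were low. Sox10 measured 0.118 and 0.224 FPKM at day 4, against 1.73 and 1.00 FPKM at day 2 (-1.0, adjusted p = 0.0202). Tfap2a measured 1.57 and 1.58 FPKM at day 4, against 1.02 and 1.04 FPKM at day 2 (0.34, adjusted p = 0.229). Pax3 was at most 0.414 FPKM. Twist1 lost its call without any 1 of the 4 WT libraries (adjusted p up to 0.0888) and Sox10 without WT-1 at day 2, WT-1 at day 4 and WT-2 at day 4 (adjusted p up to 0.122). Of the crest genes 2 rose without any 1 of the 4 WT libraries, 0 fell without WT-1 at day 4 or WT-2 at day 4 and 1 fell without WT-1 at day 2 or WT-2 at day 2. Of endothelium and blood genes 3 of 16 were tested. Pecam1, an adhesion protein of endothelium that ES cells also carry, was the one that fell, at 0.716 and 1.53 FPKM at day 4, against 8.24 and 12.2 FPKM at day 2 (-2.40, adjusted p = 0.00484). Cdh5 stayed at or below 0.576 FPKM, Hbb-bh1 was at 0 in both day 4 libraries and Ptprc, the marker of white blood cells, at 0 in all 4 libraries. Of germline and meiosis genes, 1 of 12 tested members rose, 1 fell and 10 did not pass, with a median of -0.35. That compares with 14.4% of all genes that rose and 10.9% that fell. Stra8, the RA-induced gene of meiotic entry, was high on both days at 834 and 395 FPKM at day 4, against 1165 and 735 FPKM at day 2, with WT-1 above WT-2 on each day and overlapping days (-0.69, adjusted p = 0.301). Rec8, a meiotic cohesin, measured 258 and 208 FPKM at day 4, against 136 and 80.6 FPKM at day 2 (1.14, adjusted p = 0.0243) and lost its call without WT-2 at day 2, WT-1 at day 4 and WT-2 at day 4 (adjusted p up to 0.132). The germ cell genes Ddx4 and Dazl were low. Ddx4 measured 4.48 and 3.95 FPKM at day 4, against 3.91 and 6.64 FPKM at day 2 (-0.24, adjusted p = 0.755). Dazl measured 5.85 and 8.84 FPKM at day 4, against 8.85 and 11.3 FPKM at day 2 (-0.42, adjusted p = 0.303). In the germline list 0 rose without WT-2 at day 2, WT-1 at day 4 or WT-2 at day 4 and 0 fell without any 1 of the 4 WT libraries.

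Igfbp5 belongs to the list of the IGF system and of imprinted genes, which are genes expressed from 1 parental copy. In this list 12 of 21 tested members rose, 1 fell and 8 did not pass, with a median of 0.66. Peg3, a paternally expressed zinc finger gene, measured 237 and 278 FPKM at day 4, against 24.8 and 21.5 FPKM at day 2 (3.42, SE 0.220, adjusted p = 0.000312). Dlk1, a paternally expressed Notch-like protein, measured 30.3 and 40.1 FPKM at day 4, against 4.52 and 5.32 FPKM at day 2 (2.60, adjusted p = 0.000381). Airn, the noncoding RNA transcribed across Igf2r, measured 8.96 and 8.20 FPKM at day 4, against 1.28 and 0.858 FPKM at day 2 (2.22, adjusted p = 0.000472). Peg3 overlaps its antisense RNA Peg3as and Airn overlaps Igf2r. The growth factor Igf2, named after its values were seen, measured 279.9 and 362 FPKM at day 4, against 113 and 71.6 FPKM at day 2 (1.81, adjusted p = 0.00172). The carrier Igfbp2, likewise, measured 72.9 and 84.8 FPKM at day 4, against 396 and 322 FPKM at day 2 (-2.17, adjusted p = 0.000472), the member that fell. Of the imprinted and IGF genes 7 rose without WT-2 at day 4.

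Some proliferation genes were lower by small amounts. In the list 0 of 24 tested members rose, 11 fell and 13 did not pass, with a median of -0.41. Aurka and Plk1 encode mitotic kinases. Aurka measured 38.1 and 46.5 FPKM at day 4, against 62.9 and 66.0 FPKM at day 2 (-0.60, adjusted p = 0.0145). Plk1 measured 73.1 and 88.8 FPKM at day 4, against 117 and 121 FPKM at day 2 (-0.56, adjusted p = 0.0171). Cdc20, an activator of the anaphase complex, measured 94.0 and 90.6 FPKM at day 4, against 143 and 130.0 FPKM at day 2 (-0.56, adjusted p = 0.00631). Pcna, the clamp of DNA replication, measured 113 and 109.6 FPKM at day 4, against 151 and 174 FPKM at day 2 (-0.54, adjusted p = 0.0109). Aurka lost its call without WT-1 at day 2, WT-2 at day 2 and WT-1 at day 4 (adjusted p up to 0.0883), Plk1 without WT-1 at day 2, WT-2 at day 2 and WT-1 at day 4 (adjusted p up to 0.101), Cdc20 without WT-2 at day 4 (adjusted p up to 0.0507) and Pcna without WT-2 at day 2, WT-1 at day 4 and WT-2 at day 4 (adjusted p up to 0.072). Of proliferation genes 1 fell without WT-1 at day 4, 2 fell without WT-2 at day 2 or WT-2 at day 4 and 3 fell without WT-1 at day 2. Among D cyclins and CDK inhibitors 2 of 10 tested members rose, 1 fell and 7 did not pass, with a median of 0.32. The shares over all genes were 14.4% that rose and 10.9% that fell. Ccnd3 measured 102 and 94.6 FPKM at day 4, against 193 and 217 FPKM at day 2 (-1.05, adjusted p = 0.0166). The CDK inhibitor gene Cdkn2b measured 9.20 and 12.3 FPKM at day 4, against 4.83 and 5.44 FPKM at day 2 (0.92, adjusted p = 0.0206). Its neighbour Cdkn2a measured 67.3 and 75.6 FPKM at day 4, against 47.9 and 43.0 FPKM at day 2 (0.64, adjusted p = 0.00905). Ccnd3 lost its call without any 1 of the 4 WT libraries (adjusted p up to 0.0976), Cdkn2b without WT-1 at day 2, WT-2 at day 2 and WT-2 at day 4 (adjusted p up to 0.126) and Cdkn2a without WT-2 at day 2 and WT-2 at day 4 (adjusted p up to 0.0675). Of these genes 0 rose without WT-2 at day 2 or WT-2 at day 4, 1 rose without WT-1 at day 2 and 0 fell without any 1 of the 4 WT libraries.

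Some transcripts of glucose uptake and of cholesterol synthesis were lower at day 4. In the glycolysis list, which includes glucose transporters, 1 of 22 tested members rose, 6 fell and 15 did not pass, with a median of -0.30. The glucose transporter gene Slc2a1 (NM_011400, chromosome 4, 118781350 to 118809934) measured 118 and 112 FPKM at day 4, against 1055 and 823 FPKM at day 2 (-3.01, SE 0.181, adjusted p = 0.000302). Its relative Slc2a3 measured 108 and 121 FPKM at day 4, against 366 and 427 FPKM at day 2 (-1.78, adjusted p = 0.00159). Pfkp, a form of phosphofructokinase, measured 4.55 and 5.32 FPKM at day 4, against 19.8 and 31.4 FPKM at day 2 (-2.13, adjusted p = 0.00288). Pdk3, a kinase that slows entry of pyruvate into the citric acid cycle, measured 47.1 and 41.0 FPKM at day 4, against 24.1 and 29.7 FPKM at day 2 (0.70, adjusted p = 0.0112) and lost its call without WT-1 at day 2 and WT-1 at day 4 (adjusted p up to 0.0748). In the glycolysis list 0 rose without WT-1 at day 2 or WT-1 at day 4 and 3 fell without WT-2 at day 2 or WT-1 at day 4. Of cholesterol synthesis genes, 0 of 22 tested members rose, 12 fell and 10 did not pass, with a median of -0.53. Fdps, Mvd and Lss encode enzymes along the pathway. Fdps measured 70.6 and 90.5 FPKM at day 4, against 174 and 193 FPKM at day 2 (-1.19, adjusted p = 0.00159). Mvd measured 17.9 and 18.6 FPKM at day 4, against 38.4 and 39.0 FPKM at day 2 (-1.04, adjusted p = 0.00138). Lss measured 19.8 and 26.5 FPKM at day 4, against 46.2 and 50.0 FPKM at day 2 (-1.04, adjusted p = 0.00573). Of stress response genes, 3 of 20 tested members rose, 5 fell and 12 did not pass, with a median of -0.13. Over all genes 14.4% rose and 10.9% fell. The heat shock genes Hspa1a and Hspa1b are near-identical copies. Hspa1a measured 1.64 and 2.29 FPKM at day 4, against 8.04 and 5.10 FPKM at day 2 (-1.33, adjusted p = 0.00726). Hspa1b measured 2.13 and 2.54 FPKM at day 4, against 10.5 and 6.13 FPKM at day 2 (-1.44, adjusted p = 0.0057). The metallothionein gene Mt2 measured 812 and 549 FPKM at day 4, against 2019 and 1635 FPKM at day 2 (-1.44, adjusted p = 0.0189). Sesn2, a target of p53 and ATF4, measured 128 and 107 FPKM at day 4, against 63.8 and 52.7 FPKM at day 2 (1.00, adjusted p = 0.00319). Mt2 lost its call without WT-1 at day 2, WT-2 at day 2 and WT-2 at day 4 (adjusted p up to 0.114). Of stress genes 1 rose without WT-1 at day 4, 2 fell without WT-2 at day 2 or WT-2 at day 4 and 3 fell without WT-1 at day 2.

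The same days were compared in the 58 kb KO cells. In these cells 1576 genes rose (10.0%) and 1226 fell (7.81%), 2802 in all (17.8%), against 2260 and 1713 in WT cells. The difference between the genotypes, the WT change minus the KO change, was tested in the same fit. No gene of 15705 passed with limma (0%), 873 had an unadjusted p under 0.05 and the smallest adjusted p was 0.17. This does not show that the genotypes changed alike. With the filter set to more than 0 FPKM 5 genes passed, without an intensity trend 1, and without KO-j at day 2 1. The median of the pluripotency list was -1.87 in WT and -1.64 in KO cells. That of extraembryonic endoderm was 2.01 in WT and 1.04 in KO cells. For smooth muscle it was 0.93 in WT and 0.75 in KO cells, and for HOXA 0.31 in WT and 1.09 in KO cells. For Igfbp5 the change was 5.84 in WT and 4.31 in KO cells, and for Acta2 5.43 in WT and 4.96 in KO cells. For Dppa5a it was -3.61 in WT and -3.43 in KO cells, and for Nanog -3.55 in WT and -2.51 in KO cells. The KO libraries were apart at day 2, with Igfbp5 at 16.7 and 3.87 FPKM and Acta2 at 4.12 and 0.825 FPKM. Dppa5a measured 553 and 925 FPKM there, and Nanog 59.1 and 134 FPKM. In each of these genes KO-j lay nearer to the day 2 WT libraries than KO-i did. A difference between clones cannot be told apart here from one between genotypes.

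Hoxa5 was the gene with a symbol among the 3 smallest p-values on the side where the WT change lay below the KO change. In KO cells it measured 99.3 and 118 FPKM at day 4, against 22.7 and 22.2 FPKM at day 2 (2.22), beside the WT values given above (0.94), a difference of -1.29 (SE 0.211, unadjusted p = 0.000379, adjusted p = 0.71). On each day both KO libraries lay below both WT libraries. The other loci on that side were the unnamed XLOC_019037 and XLOC_009875, with differences of -1.62 and -1.62 and adjusted p = 0.71 and 0.71. On the side where the WT change lay above, the 3 smallest p-values were those of unnamed loci: XLOC_012662, at 0 in all 4 WT libraries, XLOC_002205 and XLOC_019507, with differences of 2.90, 3.60 and 3.82 (adjusted p = 0.17, 0.617 and 0.617). Gm15055, the gene targeted by the deletion, measured 3.08 and 0.447 FPKM at day 4, against 1.13 and 0 FPKM at day 2 in KO cells, below all 4 WT libraries.

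**Figure D5:**
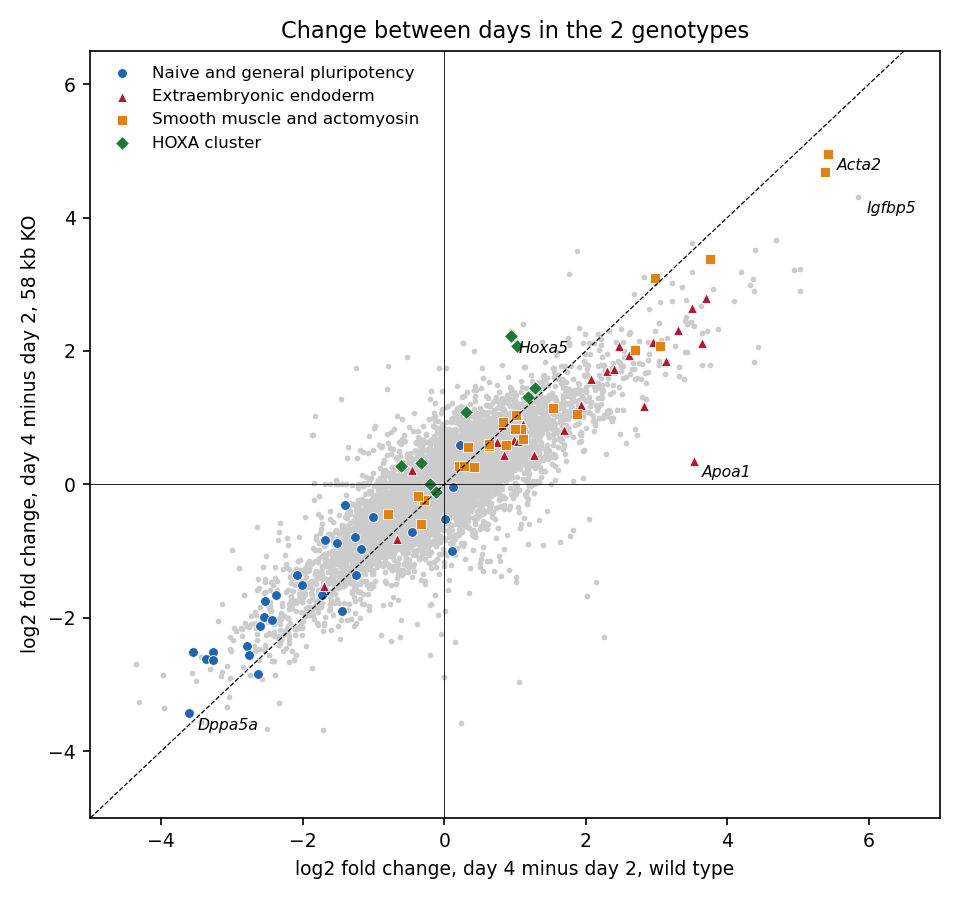
Log2 fold change, day 4 minus day 2, in WT cells (horizontal) against 58 kb KO cells (vertical) for 15705 genes in grey, with 4 gene lists in colour and a dashed line of equal change. Hoxa5, at 0.94 in WT and 2.22 in KO cells, lies above the line, and Igfbp5, at 5.84 and 4.31, below it; no gene passed the test of the difference.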

How the data were processed

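Poly(A) RNA of 8 RA-treated samples was sequenced without strand marking, per the labels' protocols. The deposited values were judged to be FPKM from their range and steps. TopHat2 2.0.11, Bowtie 1.0.0, CASAVA and the build mm9 are named, without their role, in the submitters' processing notes. No source used here says which program gave the FPKM. Listed starts were moved by 1, since spans then start from 1. The other 46 samples were not used. Depths, from steps between low values of 22 to 71 entries per library, are approximate.

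From the deposited FPKM, log2(FPKM + 1) was fitted with limma 3.58.1 in R 4.3.3 with 4 group means (2 genotypes, 2 days; 4 residual and 3.50 prior degrees of freedom), an intensity trend and Benjamini-Hochberg adjustment. All adjusted p-values are limma's. The fit was tested on simulated data. The 4 libraries of WT cells and the 34 gene lists (624 genes, of which 2 had no entry) were chosen with earlier results of these data known. Named genes were the 4 marks, the marker genes of cell types, and up to 4 members per list that passed with at least 5 FPKM on 1 day, by size of change. They were also the 10 highest and 10 lowest named genes of at least 10 FPKM, the 5 highest in level on each day, the HOXA genes and the smallest p-values of the difference. Others are said to have been chosen after their values were seen. Lists are described by counts and medians, without a test. Of the 172 named genes that passed, most but not all passed with each WT library left out in turn. They were largely picked by size of change or level, so this does not hold for other genes. Over all genes that passed, fewer kept their call than lost it, whichever WT library was left out. Genes that overlap, have antisense partners or near-identical copies are uncertain. WT-1 and WT-2 recur on both days, but the labels do not say that they mark a shared culture. Some genes that the naming rule takes in are not reported here.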

Additional observations from a re-analysis of the deposited data

Results flagged for a closer look

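The unnamed locus XLOC_002205 moved in opposite directions in the 2 genotypes, in every library. It measured 5.03 and 2.39 FPKM at day 4, against 0 and 0.0487 FPKM at day 2 in WT cells (log2 fold change 2.14, adjusted p = 0.00457), while in 58 kb KO cells it measured 0.450 and 0.993 FPKM at day 4, against 2.84 and 4.70 FPKM at day 2 (-1.46, adjusted p = 0.0257). The WT change minus the KO change was 3.60 (SE 0.469, unadjusted p = 8.22e-05), and limma's test of that difference did not pass (adjusted p = 0.617). The locus has no annotation in the deposited table, and no cause was tested.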

How the results depend on the processing

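Among the named genes, none that passed turned its direction under any setting tried. Of those that did not pass, 3 turned with 1 WT library left out: Hoxa9 (-0.60 to 0.20), Ddx4 (-0.55 to 0.083) and XLOC_019507 (-0.30 to 0.78). With 1 WT library left out, 1494 to 1917 genes passed, 908 to 1156 higher and 586 to 781 lower, against 3973, 2260 and 1713. With a minimum change of 1 log2 unit added, 1681 passed, 862 higher and 819 lower. Other settings gave 3170 (at least 5 FPKM) to 4783 genes. The names pair only 2 WT libraries a day, and deviations of libraries of 1 name correlated at 0.085 in WT and 0.26 in KO cells across genes. A replicate block by name gave 4783 genes, the 4 WT libraries alone 4514, and alone with the replicate block 4571. The block moved no count over all genes by more than 1.5 times. Of the list counts of at least 5, it moved 2 by more: 17 proliferation genes fell, against 11, and 10 glycolysis genes, against 6. In the germline list 6 genes fell with it, against 1, in the retinoid list 3, against 1, and in HOXB, cadherin, IGF and TGF beta lists 2, against 1. In the smooth muscle list 1 fell, against 2, and in the Polycomb list 2 rose, against 1. In the 4 WT libraries alone, the block gave 5 falls in the retinoid and germline lists and 3 in the cadherin list, against 1. For the difference between genotypes, 5 genes passed above 0 FPKM, 1 without an intensity trend, and 0 to 1 with 1 library left out (the 1 without KO-j at day 2), against 0. The cause of these shifts was not tested. At 10.1 to 16.1 M reads, genes near 1 FPKM rest on few reads, and 2 libraries a day limit every p-value.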

Other observations

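A few genes set WT-1 apart from WT-2 on both days. Among genes with a symbol, 4 differed by at least 1.5 log2 units between the 2 names in the same direction at day 4 and day 2, and they were chosen after their values were seen. Cdkn1c, an imprinted inhibitor of cyclin-dependent kinases, measured 36.7 and 5.33 FPKM at day 4, against 28.3 and 3.52 FPKM at day 2, with WT-1 (the first value of each pair) the higher library. The entry AK145379 measured 14.3 and 3.11 FPKM at day 4, against 7.48 and 1.31 FPKM at day 2, with WT-1 higher as well. Eif2s3y, a gene of the Y chromosome, measured 1.52 and 7.42 FPKM at day 4, against 0.793 and 7.30 FPKM at day 2, with WT-2 the higher library. Sdhaf1, an assembly factor of succinate dehydrogenase, measured 0.00254 and 6.75 FPKM at day 4, against 0.00175 and 4.92 FPKM at day 2, again with WT-2 higher. No test was made of these differences.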
